A study of Pan troglodytes with 217 samples.

Results

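The 10 genes ATF4, DDIT3, ATF3, XBP1, ASNS, CHAC1, TRIB3, SESN2, PPP1R15A and HSPA5 of the integrated stress response and the unfolded protein response were followed across single cells of day 4 chimpanzee blastoids. The list was set by gene symbol, and each of the 10 symbols was matched among the 33729 Ensembl chimpanzee gene identifiers of the count table. ASNS was matched by 2 identifiers, of which the second held 24 reads, and their reads were summed.

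Blastoids are blastocyst-like structures made from naive pluripotent stem cells, here chimpanzee naive induced pluripotent stem cells (iPSCs). The labels name 1 condition for all cells. In the study's methods, naive cells were cultured in PXGL-A6E, which contains the EZH2 inhibitor EPZ-6438. They were aggregated in PALY medium (the MEK inhibitor PD, the TGF-beta receptor inhibitor A83, LPA and the ROCK inhibitor Y-27632), moved to ALY and then to N2B27. Alternative ways of forming the aggregates are described there, and which of them gave these cells is not stated. Mural trophectoderm was cut away and dissociated apart from, and for longer than, the polar trophectoderm with the inner cell mass. Single cells went through SMART-seq2, which reads whole cDNAs and uses no molecular identifiers. The labels give no blastoid, cell line, batch or dissection fraction per cell, so all cells form 1 sample, no test was made and no p is given.

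The integrated stress response starts with kinases that phosphorylate the translation factor eIF2, which lowers protein synthesis overall while the mRNA of the transcription factor ATF4 is translated more. ATF4 then drives genes for amino acid supply, redox balance and, with its partner CHOP, the product of DDIT3, for feedback and cell death. The unfolded protein response is the sensing of misfolded protein in the endoplasmic reticulum (ER) by PERK, which feeds into the same eIF2 step, by IRE1, which splices XBP1 mRNA, and by ATF6, and it raises ER chaperones such as HSPA5. Counts per gene show mRNA only. They hold neither the translation of ATF4 nor the spliced share of XBP1.

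At least 4000 reads and 8000 detected genes were found in 88.9% of the cells, and the other 24 cells were left out. Kept cells held between 1679888 and 25630392 reads, with class medians of 3951119 to 3978822.5 reads and 10986 to 11736 detected genes. Clustering gave 50 epiblast-like cells, 32 hypoblast-like cells and trophectoderm-like cells in an early cluster of 60 and a late cluster of 51, which form 1 class. The names held against their markers: NANOG was at 244 CPM (reads of the gene per 1000000 reads) in the epiblast-like class, 32.9 CPM in the hypoblast-like class and 3.64 CPM in the trophectoderm-like class, SOX17 at 1.20, 110.5 and 0.428 CPM, and GATA3 at 70.4, 58.5 and 691 CPM in the same order. The late cluster, named for lower CDX2 and higher CCR7, also held the syncytiotrophoblast marker CGA at 858 CPM against 18.5 CPM in the early cluster by sums, although its median cell had 34.4 CPM for the 4 measured syncytiotrophoblast markers together and its highest 14337 CPM. Summed fibroblast markers had medians of 0 to 3.55 CPM in the 3 classes. Levels below are CPM of the reads summed over the cells of a class unless a single cell is named. Their exact Poisson 95% intervals cover counting error only and are far narrower than the range among cells.

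For 8 of the 10 stress genes, the highest class was less than 2-fold above the lowest, and the median over the 10 genes was 1.42-fold. Over all 8673 features with at least 10 CPM in 1 class, the median was 1.63-fold and 64.6% lay under 2-fold. With the highest cell of each gene and class left out, 6 of the 10 lay under 2-fold, as TRIB3 (12.7 CPM in trophectoderm-like against 4.85 CPM in hypoblast-like cells) and DDIT3 passed it, and the median was 1.73-fold. With all cells, the 2 genes past 2-fold were ASNS, 3.09-fold higher in epiblast-like than in hypoblast-like cells, and CHAC1, 5.26-fold higher in trophectoderm-like than in hypoblast-like cells. SESN2 varied least, by 1.07-fold.

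A gene was counted as different where its CPM differed more than 2-fold and the higher class had at least 10 CPM. Between epiblast-like and trophectoderm-like cells 0 of 10 stress genes met this, against 17.3% of all features tested that were higher in epiblast-like, 9.95% in trophectoderm-like and 27.2% in either. Between hypoblast-like and trophectoderm-like cells 2 of 10 did, ASNS and CHAC1, both lower in hypoblast-like cells, against 9.9% of features in that direction, 11.2% in the other and 21.1% in either. Between epiblast-like and hypoblast-like cells 8 of the 10 reached the level needed and 1, ASNS, was higher in epiblast-like cells, where the background was 11.1% in that direction, 5.67% in the other and 16.8% in either. CHAC1 differed 2.87-fold there, below the level needed. Between late and early trophectoderm-like cells 0 of 10 passed, against 7.06% of features higher in late cells, 5.1% in early cells and 12.2% in either. PPP1R15A, at 39.3 CPM in early and 24.3 CPM in late cells, passed 2-fold in 5 of 14 alternatives.

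**Figure D1:**
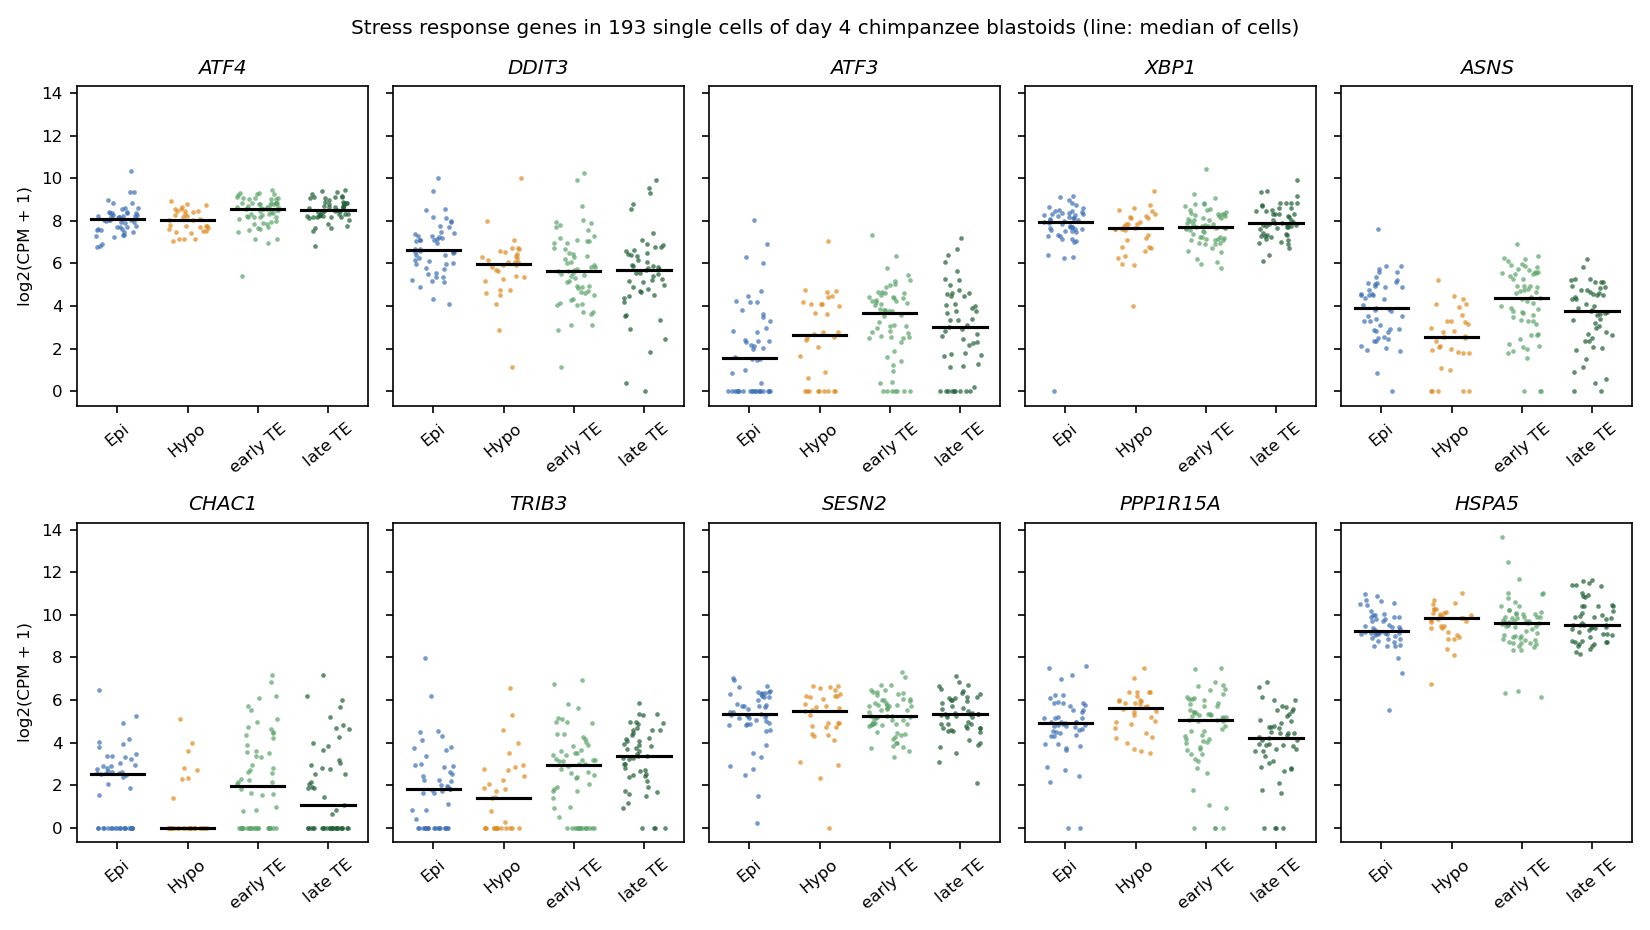
Level of each stress response gene in single cells, as log2(CPM + 1), by cluster (50 epiblast-like, 32 hypoblast-like, 60 early and 51 late trophectoderm-like cells); each point is 1 cell and each line the median of the cells. ASNS and CHAC1 have their lowest medians in hypoblast-like cells (4.76 and 0 CPM), while the cells of all clusters overlap for all 10 genes.

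Among the transcription factors, ATF4, the central effector of the integrated stress response, was read in every kept cell. Its level was 307 CPM in the epiblast-like class (95% interval 304 to 309), 272 CPM in the hypoblast-like class (269 to 275) and 389 CPM in the trophectoderm-like class (387 to 391). Single cells ran from 106.98 CPM through a median of 269 CPM to 1300 CPM in the epiblast-like class, from 130.76 through 260 to 488 CPM in the hypoblast-like class, and from 41.3 through 377 to 697 CPM in the trophectoderm-like class. The classes overlapped. The top of the epiblast-like range was 1 cell, and the second highest was at 659 CPM. ATF4 was 1.43-fold higher in trophectoderm-like than in hypoblast-like cells, a direction kept under all 14 alternatives.

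DDIT3, which encodes the pro-apoptotic factor CHOP, was at 144.49 CPM (142.89 to 146.1) in the epiblast-like class, 113.35 CPM (111.52 to 115.21) in the hypoblast-like class and 110.35 CPM (109.44 to 111.26) in the trophectoderm-like class. Its cells were far more unequal than those of ATF4, with a lowest, median and highest cell of 15.999, 98.9 and 1050 CPM in the epiblast-like class, 1.20, 62.5 and 1034 CPM in the hypoblast-like class, and 0, 50.1 and 1216 CPM in the trophectoderm-like class. One hypoblast-like cell held 48.5% of the DDIT3 reads of its class, and without it the class was at 61.7 CPM. With the highest cell of each class left out, DDIT3 was at 131.74 CPM in epiblast-like cells and passed 2-fold over hypoblast-like cells (log2 difference 1.10). The medians gave the same order of classes as the sums. Log2 differences between epiblast-like and trophectoderm-like cells ran from -0.24 to 0.98 over the alternatives, and the RefSeq annotation places MARS1 over DDIT3, so reads from the 2 genes may not be told apart without strand.

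ATF3, an immediate stress-induced factor and a partner of CHOP, was low and uneven. It was at 12.5 CPM in the epiblast-like class, 15.956 CPM in the hypoblast-like class and 17.6 CPM in the trophectoderm-like class. It had a read in 62% of the epiblast-like (95% Clopper-Pearson interval 47.2% to 75.4%), 71.9% of the hypoblast-like (53.3% to 86.3%) and 85.6% of the trophectoderm-like cells (77.7% to 91.5%). When all cells were thinned to 2532312 reads, which left out 20 cells, the shares were 64.6%, 72% and 82%. Medians were 1.98, 5.24 and 9.08 CPM and the highest cells 267, 133.29 and 160 CPM. The single highest cell held 34.1% of the reads in epiblast-like and 44.4% in hypoblast-like cells, and without those cells the classes were at 8.38 and 9.37 CPM.

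XBP1, the substrate of IRE1 and a driver of ER chaperone and degradation genes, was at 249.42 CPM in the epiblast-like class, 215.09 CPM in the hypoblast-like class and 271 CPM in the trophectoderm-like class. Its cells ran from 0 through a median of 247 to 576 CPM, from 15.1 through 201.11 to 672 CPM, and from 54.2 through 223.21 to 1406 CPM in the same order. All but 1 of the kept cells had a read. No pair of classes differed by as much as 1.27-fold, and the late trophectoderm-like cluster (310 CPM) was 1.32-fold above the early one (235 CPM).

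The 2 enzymes were lowest in hypoblast-like cells. ASNS makes asparagine from aspartate and is a standard target of ATF4. It was at 23.1 CPM (22.4 to 23.7) in the epiblast-like class, 7.47 CPM (7.0036 to 7.9564) in the hypoblast-like class and 21.9 CPM (21.5 to 22.3) in the trophectoderm-like class. The lowest cell was at 0 in each class, the medians were 13.9, 4.76 and 16.4 CPM and the highest cells 197.6, 36 and 120.68 CPM. At least 10 CPM was reached by 60% of the epiblast-like (45.2% to 73.6%), 21.9% of the hypoblast-like (9.2772% to 39.973%) and 64.9% of the trophectoderm-like cells (55.2% to 73.7%). The cells overlapped, but a smaller share of the hypoblast-like cells stood high. Under all 14 alternatives ASNS stayed more than 2-fold lower in hypoblast-like than in either other class, with log2 differences of -1.78 to -1.41 from trophectoderm-like cells. The early trophectoderm-like cluster was at 26.037 CPM and the late one at 17.5 CPM.

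CHAC1 degrades glutathione. It was at 7.56 CPM (7.20 to 7.94) in the epiblast-like class, 2.64 CPM (2.36 to 2.93) in the hypoblast-like class and 13.9 CPM (13.6 to 14.2) in the trophectoderm-like class. A read was found in 60% of the epiblast-like (45.2% to 73.6%), 25% of the hypoblast-like (11.5% to 43.4%) and 58.6% of the trophectoderm-like cells (48.8% to 67.8%), and in 58.3%, 28% and 60% at equal depth. The medians were 4.68, 0 and 2.12 CPM and the highest cells 88.9, 33.2 and 142.33 CPM. In hypoblast-like cells 8 cells carried all reads and 1 cell 51.032% of them; without it the class was at 1.35 CPM. The log2 difference of hypoblast-like from trophectoderm-like cells was -2.40 and ran from -3.04 to -2.29 over the 13 alternatives that gave a value. Against trophectoderm-like cells, the log2 difference of epiblast-like cells was -0.88 on summed reads and turned to 1.14 on medians. The highest late trophectoderm-like cell held 37.9% of the reads of its cluster, which was at 16.5 CPM with it and 10.7 CPM without it.

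On summed reads the feedback genes gave less contrast. On medians, all under 10 CPM, the log2 differences of TRIB3 from trophectoderm-like cells were -1.68 in epiblast-like and -2.26 in hypoblast-like cells. TRIB3, a pseudokinase that binds ATF4 and AKT and damps the response, was at 9.54 CPM in the epiblast-like class, 9.62 CPM in the hypoblast-like class and 13.2 CPM in the trophectoderm-like class, with medians of 2.49, 1.67 and 7.9971 CPM and highest cells of 250, 94.7 and 121.86 CPM. One cell held 41.987% of the TRIB3 reads of the epiblast-like and another 52.3% of those of the hypoblast-like class. Without them these classes were at 5.63 and 4.85 CPM, more than 2-fold below trophectoderm-like cells. TRIB3 had a read in 66% of the epiblast-like, 59.4% of the hypoblast-like and 83.8% of the trophectoderm-like cells.

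SESN2, a stress-induced inhibitor of mTORC1 that senses leucine, was at 46.4 CPM in the epiblast-like class, 47.994 CPM in the hypoblast-like class and 45.1 CPM in the trophectoderm-like class. Medians were 39.2, 44.1 and 38.4 CPM and the highest cells 128.09, 100.72 and 155.97 CPM. The cells of the classes overlapped. PPP1R15A encodes GADD34, the subunit that guides a phosphatase to eIF2 and ends the response. It was at 39.6 CPM in the epiblast-like class, 52.7 CPM in the hypoblast-like class and 31.984 CPM in the trophectoderm-like class, with medians of 28.8, 48.2 and 21.987 CPM and highest cells of 194.79, 177.48 and 180 CPM. By sums it was the 1 gene of the 10 whose hypoblast-like level was more than 1.5-fold above trophectoderm-like cells (1.65-fold), opposite in direction to ASNS and CHAC1. The contrast was weaker with the early (39.3 CPM) than with the late trophectoderm-like cluster (24.3 CPM). The log2 difference of 0.72 was 0.57 with the highest cells left out and 1.13, past 2-fold, on medians.

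HSPA5 encodes BiP, the main ER chaperone of the Hsp70 family. It was at 748 CPM (744 to 751) in the epiblast-like class, 881 CPM (876 to 886) in the hypoblast-like class and 1146 CPM (1143 to 1148) in the trophectoderm-like class. Single cells ran from 44.8 through a median of 613 to 2023 CPM in the epiblast-like class, from 105.02 through 916 to 2075 CPM in the hypoblast-like class, and from 68.9 through 746 to 12878 CPM in the trophectoderm-like class. By sums trophectoderm-like cells were highest, by medians hypoblast-like cells were: the log2 difference of hypoblast-like from trophectoderm-like cells was -0.38 on summed reads and 0.30 on medians. The trophectoderm-like sum was raised by a tail of high cells, 5 of which held 28.8% of its HSPA5 reads.

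The other genes of the pathway, taken from lists, were compared by the same rule. The lists were assembled with earlier results of these data known, and their counts are given as descriptions beside the background shares above. Of the eIF2 kinases, PERK (EIF2AK3) was at 40.6, 21.3 and 32.5 CPM in epiblast-, hypoblast- and trophectoderm-like cells. GCN2 (EIF2AK4), which senses uncharged tRNA, was at 11.8, 14.8 and 33.018 CPM, and PKR (EIF2AK2), which binds double-stranded RNA, at 19.8, 4.11 and 9.41 CPM. The haem-regulated kinase gene EIF2AK1 was at 0.0775 to 0.0837 CPM in the 3 classes. It was matched by 2 identifiers with 68 reads. Reads shared with gene copies were not resolved, so absence of EIF2AK1 mRNA cannot be read from this value. Kinase mRNA was present in all 3 classes for PERK, GCN2 and PKR.

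Of the 10 eIF2, eIF2B and phosphatase genes, 2 were more than 2-fold higher in trophectoderm-like than in epiblast-like cells: the constitutive phosphatase subunit PPP1R15B (128.9 against 52.5 CPM) and EIF2B2 (88.7 against 38.5 CPM). EIF2B2 also passed against hypoblast-like cells (39.7 CPM) and between the late (122.49 CPM) and early (56.8 CPM) trophectoderm-like clusters. None of the 3 UPR sensor and protease genes tested passed in any comparison, with ATF6 at 37.8 to 60.8 CPM and the ATF6 protease MBTPS1 at 26.2 to 45.2 CPM. IRE1 (ERN1) was read at 1.47 to 4.34 CPM, below the level needed.

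Some genes of amino acid supply were, like ASNS, lower in hypoblast-like cells. Of the 5 transporters of the ATF4 programme that were tested, 4 were more than 2-fold lower in hypoblast-like than in trophectoderm-like cells and 0 were higher. They included the cystine carrier SLC7A11 (4.38 CPM against 22.7 CPM, with 30.4 CPM in the epiblast-like class) and the neutral amino acid carrier SLC1A5 (16.6 against 58.9 CPM, with 34.044 CPM in the epiblast-like class). Of 10 genes of serine, one-carbon and proline synthesis, 3 were lower and 0 higher in hypoblast-like cells. PHGDH and PSAT1 catalyse consecutive steps of serine synthesis. PHGDH was at 145.59, 37.3 and 133.67 CPM in epiblast-, hypoblast- and trophectoderm-like cells, and PSAT1 at 111.64, 69.4 and 305 CPM.

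Of 7 bZIP partners and other genes of the ATF4 and CHOP axis, 4 were lower and 0 higher in hypoblast-like than in trophectoderm-like cells. JDP2, a dimerization partner of the AP-1 and ATF families, was at 14.1, 6.04 and 80.029 CPM, and STC2, a secreted glycoprotein induced by ATF4, at 20.6, 5.62 and 69.027 CPM in epiblast-, hypoblast- and trophectoderm-like cells. The median log2 difference of hypoblast-like from trophectoderm-like cells was -1.81 for this list, -1.22 for the transporters and -0.58 for the serine list, beside -0.36 for the 10 stress genes and -0.03 over all features. Aminoacyl-tRNA synthetases, which charge tRNAs in the cytosol, did not pass in this comparison (0 of 12), with a median of -0.29. In epiblast-like cells 2 of them exceeded hypoblast-like cells by more than 2-fold, WARS1 (1061 against 369 CPM) and TARS1 (879 against 404 CPM).

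Few of the listed genes of the ER passed 2-fold. Of 14 ER chaperones and foldases tested, 1 passed 2-fold between hypoblast-like and trophectoderm-like cells, the co-chaperone and PERK inhibitor DNAJC3, at 351 CPM in the hypoblast-like class, 290 CPM in the epiblast-like class and 164.06 CPM in the trophectoderm-like class. The disulfide isomerase PDIA3 was at 364, 558 and 697 CPM in epiblast-, hypoblast- and trophectoderm-like cells. Of 10 genes of ER-associated degradation and translocation, 3 passed between at least 1 pair of classes. HERPUD1 was higher in trophectoderm-like cells (237.75 CPM) than in hypoblast-like (93.6 CPM) and epiblast-like cells (73.981 CPM). SEC24D, a coat protein of vesicles that leave the ER, was higher in epiblast-like cells (35.4 CPM) than in the others (12.9 and 14.8 CPM). EDEM1, which helps to clear misfolded glycoproteins from the ER, was higher in hypoblast-like (64.4 CPM) than in epiblast-like cells (30.6 CPM).

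**Figure D2:**
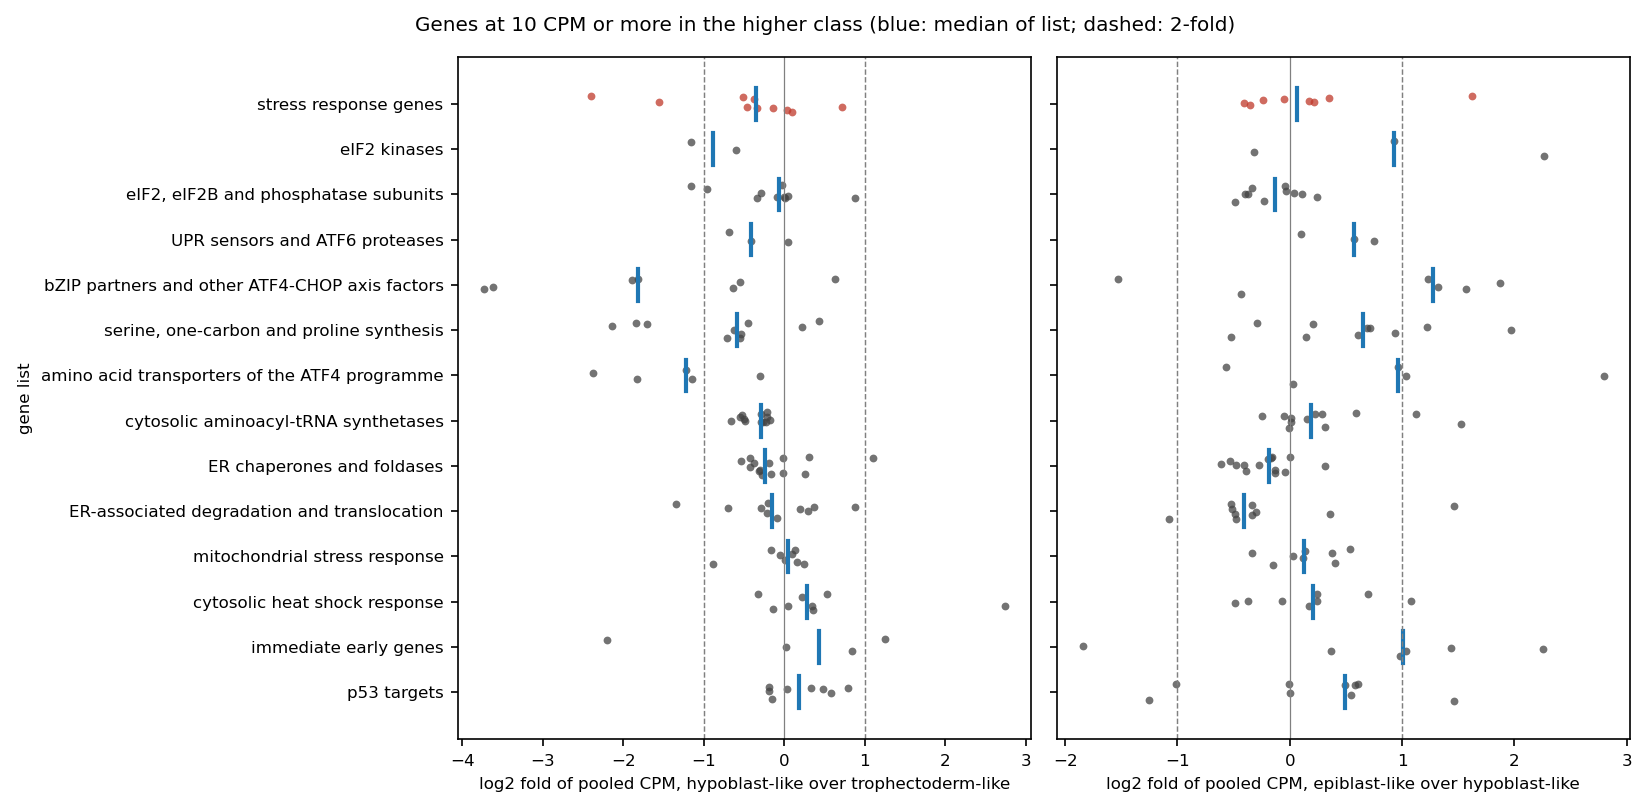
Log2 fold of summed CPM for the stress response genes (red) and for genes of each list (grey), hypoblast-like over trophectoderm-like cells on the left and epiblast-like over hypoblast-like cells on the right, for genes with at least 10 CPM in the higher class; blue bars are medians of a list and dashed lines mark 2-fold. The axis genes and the transporters lie furthest left in the left panel (medians -1.81 and -1.22), and the ER lists lie near 0.

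A further view counted, in each cell, how many of 5 genes downstream of ATF4 (ASNS, TRIB3, CHAC1, SESN2 and DDIT3) reached 10 CPM. At least 3 did so in 32 of 50 epiblast-like cells (64%, 95% interval 49.2% to 77.1%), 10 of 32 hypoblast-like cells (31.25%, 16.1% to 50.008%) and 75 trophectoderm-like cells (67.6%, 58.025% to 76.1%). All 5 reached it in 3, 1 and 19 cells. DDIT3 reached 10 CPM in 93.8% and SESN2 in 93.3% of the kept cells, so the count rests mainly on ASNS, TRIB3 and CHAC1. For the same reason, that 0 of the kept cells had none of the 5 says little. ASNS and CHAC1 are among the 5, so the low hypoblast-like share is in part the same observation as theirs. The share was 73.3% in the early and 60.8% in the late trophectoderm-like cluster. At 4 or more genes, epiblast-like cells (16%) lay closer to hypoblast-like (9.375%) than to trophectoderm-like cells (40.5%).

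Within a class, the genes did not vary as 1 block. Spearman correlations of log2(CPM + 1) were computed over cells of 1 class for each of the 45 pairs. They are descriptions, since cells share their culture and libraries share depth and quality. The median over pairs was 0.19 in epiblast-like, 0.16 in hypoblast-like and 0.20 in trophectoderm-like cells, and 7, 4 and 7 pairs reached 0.4. In trophectoderm-like cells these were the 6 pairs among ATF4, ASNS, CHAC1 and TRIB3 and the pair of XBP1 and HSPA5. In epiblast-like cells they were ATF4 with CHAC1, ASNS and DDIT3, ATF3 with DDIT3 and with CHAC1 (0.41), and PPP1R15A with XBP1 (0.44) and with SESN2 (0.41). In hypoblast-like cells they were ATF4 with DDIT3, XBP1 with HSPA5, and ASNS with CHAC1 and with TRIB3, while at 1 depth ATF4 with DDIT3 fell short of 0.4 (0.30) and ATF4 with TRIB3, at 0.24 before, reached 0.41.

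In trophectoderm-like cells ATF4 correlated with CHAC1 at 0.51, with TRIB3 at 0.49 and with ASNS at 0.42, and ASNS with TRIB3 at 0.51 and with CHAC1 at 0.50. In epiblast-like cells ATF4 correlated with CHAC1 at 0.61 and with ASNS at 0.51, but with TRIB3 at 0.00. In hypoblast-like cells ATF4 and ASNS had a value of -0.13, although ASNS and CHAC1 were at 0.46. The hypoblast-like values rest on 32 cells, and in these cells ASNS, CHAC1, TRIB3, ATF3 and XBP1 also correlated with the number of detected genes (0.41 to 0.48). Their part in the result was not tested beyond a partial correlation given detected genes and mitochondrial share, which was 0.34 for ASNS and CHAC1.

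DDIT3 did not follow ATF4 in the same way in each lineage. The 2 genes correlated at 0.50 in epiblast-like and 0.43 in hypoblast-like cells, and at -0.21 in trophectoderm-like cells. Thinned to 1 depth, the hypoblast-like value was 0.30. The trophectoderm-like value was -0.24 in the early and -0.18 in the late cluster. No test of the difference between lineages was possible with 1 sample. DDIT3 and ATF3 correlated at 0.48 in epiblast-like, 0.27 in hypoblast-like and 0.40 in trophectoderm-like cells.

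XBP1 and HSPA5 went together in all 3 classes, at 0.38 in epiblast-like, 0.63 in hypoblast-like and 0.56 in trophectoderm-like cells, and thinning or the partial correlation moved none of these by more than 0.03. ATF4 and HSPA5, the central genes of the 2 responses, gave -0.24, 0.16 and -0.10.

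**Figure D3:**
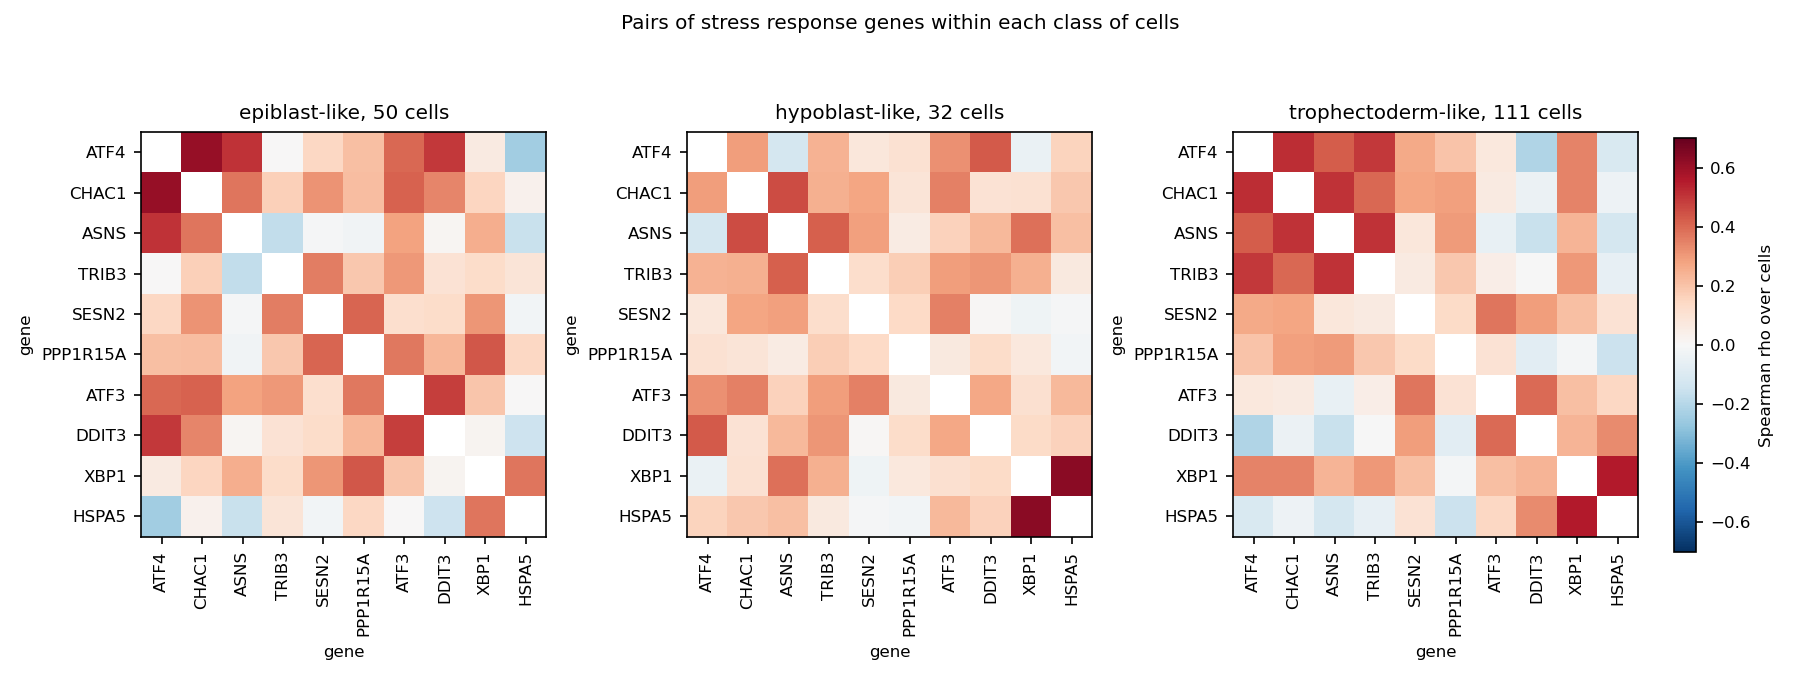
Spearman correlation of each pair of stress response genes over the cells of a class (50 epiblast-like, 32 hypoblast-like and 60 with 51 trophectoderm-like cells), from blue (negative) to red (positive). The block of ATF4, CHAC1, ASNS and TRIB3 is red in trophectoderm-like cells (0.40 to 0.51), the XBP1 and HSPA5 pair is red in all 3 classes, and ATF4 with DDIT3 is red in epiblast- and hypoblast-like cells and blue in trophectoderm-like cells.

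The same split appeared when each gene was set against all others. Log2(CPM + 1) was centred within each class, and the Spearman correlation was taken over all kept cells of the 3 classes against 10536 genes that were read in 50% of these cells or more. The nearest genes to ASNS were PSAT1 (0.75), the asparaginyl-tRNA synthetase NARS1 (0.62), the glutamine carrier SLC1A5 (0.59), PHGDH (0.57) and the mitochondrial folate enzyme MTHFD2 (0.56). Each was positive in all 3 classes, with PSAT1 at 0.63, 0.50 and 0.84 in epiblast-, hypoblast- and trophectoderm-like cells. CHAC1 ranked 14 and ATF4 ranked 45 of 10536 for ASNS. At 0.3 or more stood 9 of 11 genes of serine, one-carbon and proline synthesis and 11 of 12 tRNA synthetases, beside 1.21% of all genes.

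The nearest genes to HSPA5 were ER proteins: the calcium-binding chaperone CALR (0.76), PDIA3 (0.66), the ER Hsp90 HSP90B1 (0.66), MANF (0.63), a secreted factor that binds HSPA5, and the prolyl isomerase PPIB (0.62). All 15 listed ER chaperones and foldases and 7 of 12 degradation and translocation genes stood at 0.3 or more, beside 2.01% of all genes. XBP1 ranked 16 for HSPA5, and HSPA5 ranked 1 for XBP1. HSPA5 with ASNS gave -0.09. Median correlations with the 15 chaperones were 0.57 for HSPA5, 0.30 for XBP1, -0.10 for ASNS and -0.19 for ATF4. XBP1 was also above 0 with 11 of 11 serine genes (median 0.18), 5 of 5 transporters (0.28) and 11 of 12 tRNA synthetases (0.19). Over all genes, XBP1 was above 0 with 5911 of 10536. In trophectoderm-like cells XBP1 correlated with ATF4 at 0.35, with CHAC1 at 0.35 and with TRIB3 at 0.30.

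ATF4 had looser neighbours: DDIT4, an mTORC1 inhibitor (0.55), CHAC1 (0.48), MTHFD2 (0.47), STC2 (0.43) and PSAT1 (0.40), with ASNS at rank 11 and TRIB3 at rank 20. Most are amino acid or stress genes, and 0 of 15 ER chaperones were above 0 with ATF4, beside 6729 of all 10536 genes. In hypoblast-like cells DDIT4 (0.11) and PSAT1 (0.04) were near 0 with ATF4. DDIT3, looked at after its values were seen, stood nearest to CLK1 (0.39), RSRC2 (0.38), ATF3 (0.38), MBD6 (0.37) and MXD1 (0.37). CLK1 and RSRC2 belong to RNA splicing, and MBD6 lies close to DDIT3 on the chromosome in the RefSeq annotation. MARS1, which overlaps DDIT3, was at 0.04.

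**Figure D4:**
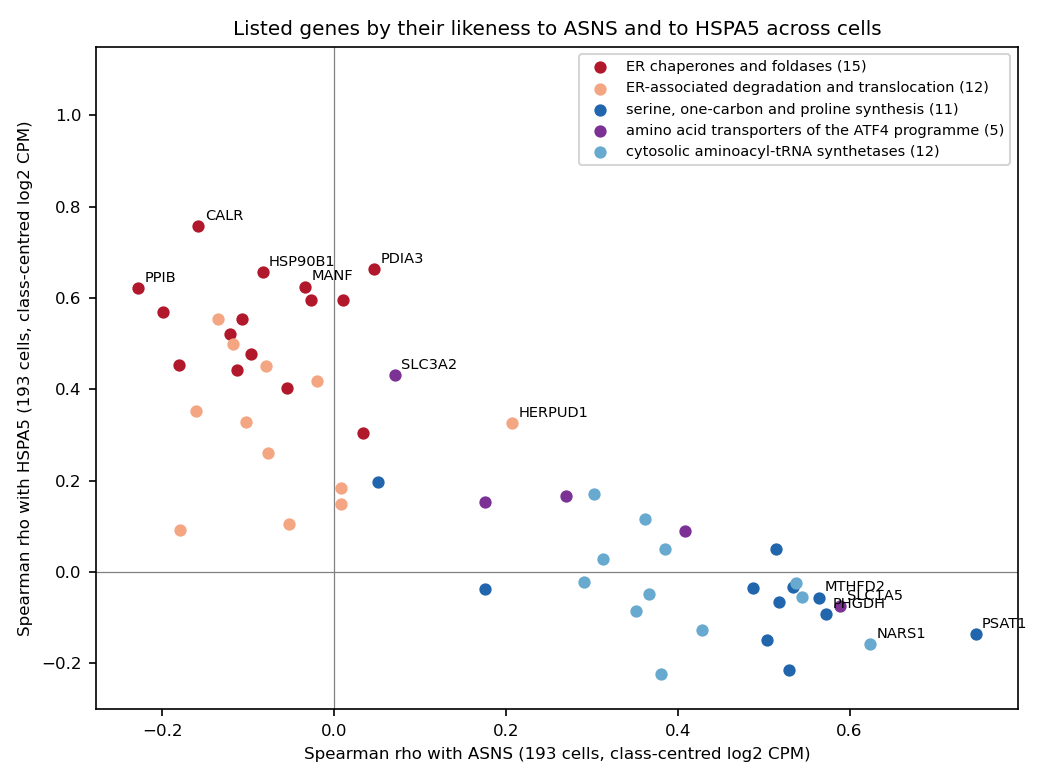
Listed genes by their Spearman correlation with ASNS (horizontal) and with HSPA5 (vertical) over the kept cells on class-centred log2(CPM + 1), coloured by list. The ER chaperones lie high on the vertical axis and near or below 0 on the horizontal one, most serine and tRNA synthetase genes the reverse, with HERPUD1 (0.21 and 0.33) and SLC3A2 (0.07 and 0.43) between or above.

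High values were carried by few cells, and some cells, singled out after their values were seen, were high for genes of both responses. One early trophectoderm-like cell had 4051180 reads and 9521 detected genes, with a mitochondrial share of 3.36%. It had the highest HSPA5 (12878 CPM), DDIT3 (1216 CPM), ATF3 (160 CPM) and PPP1R15A (180 CPM) of all trophectoderm-like cells and ranked 2 for CHAC1 (141.19 CPM) and TRIB3 (108.12 CPM). ATF4 itself was at 459 CPM (rank 32), XBP1 at 438 CPM (rank 14) and SESN2 at 52.8 CPM (rank 37). Of 27 ER chaperone and degradation genes, 7 were highest and 18 among the 5 highest in this cell, such as HSP90B1 (21472 CPM), PDIA3 (3596 CPM) and HERPUD1 (3529 CPM). The cell was chosen for its HSPA5, with which most of these genes correlate over cells, so their ranks are no separate observation. The share of all genes that rank so high was not counted for this cell. Leaving it out kept 0 and 2 stress genes past 2-fold of trophectoderm-like cells in the epiblast-like and hypoblast-like comparisons.

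A second early trophectoderm-like cell ranked 1 in its class for XBP1 (1406 CPM), 2 for HSPA5 (5699 CPM) and PPP1R15A (175.43 CPM), 4 for TRIB3 and 6 for CHAC1, with a mitochondrial share of 6.37%. In the epiblast-like class 1 cell ranked 1 for HSPA5 (2023 CPM), ATF3 (267 CPM) and TRIB3 (250.2 CPM) and 2 for ATF4 (659 CPM) and DDIT3 (681 CPM), with a mitochondrial share of 0.181%.

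The highest ATF4 and ASNS values (1300 and 197.6 CPM) came from another cell, in the epiblast-like class, with a mitochondrial share of 0.223%. The hypoblast-like cell with the highest DDIT3, ATF3, TRIB3 and PPP1R15A had the lowest share of its class, 0.464%. These 3 shares lie well under the class medians of 2.19% and 2.13%, and the part of cell quality in these values was not tested. The highest DDIT3, PPP1R15A, ATF3 and TRIB3 cells of the epiblast-like class were not that cell.

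**Figure D5:**
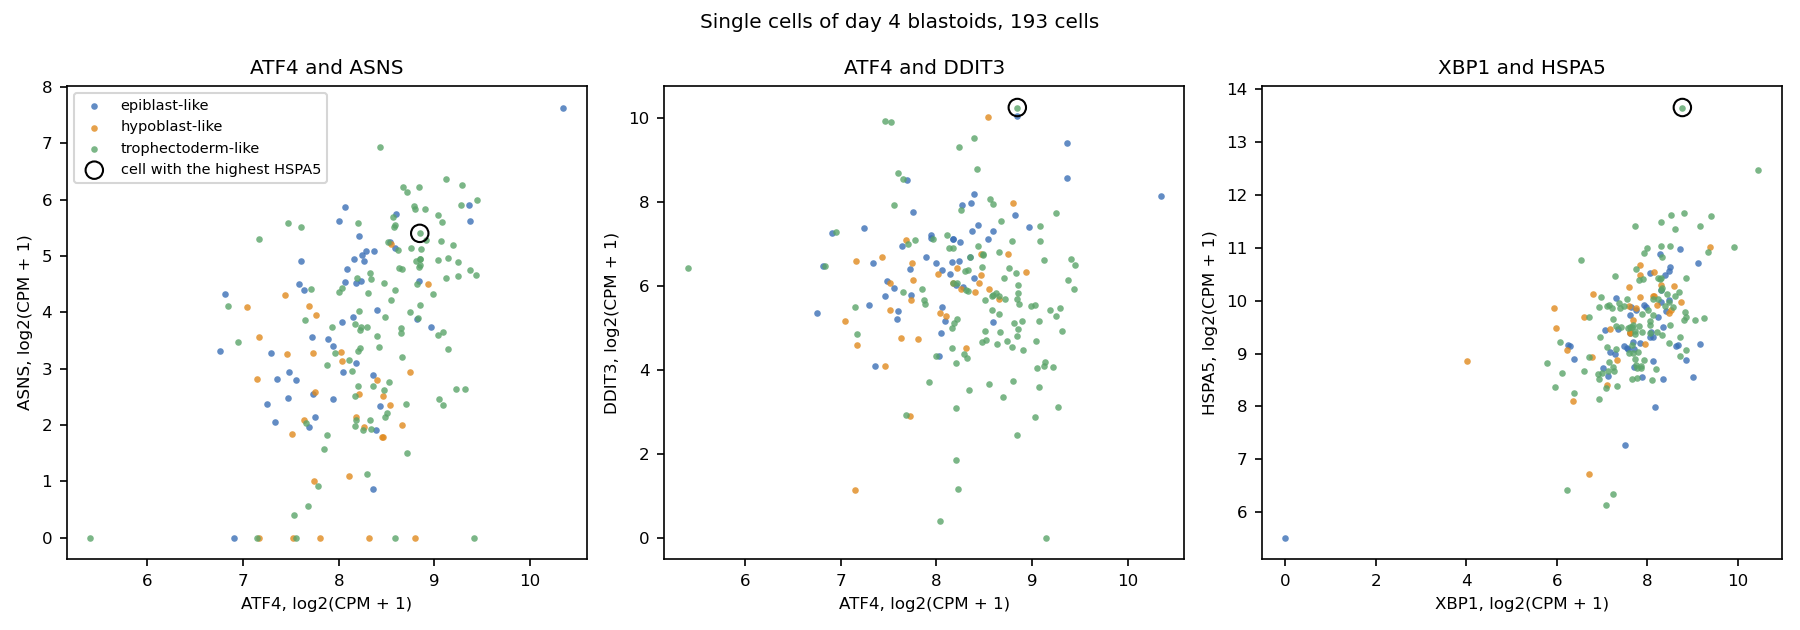
Levels in single cells as log2(CPM + 1) of ATF4 against ASNS, ATF4 against DDIT3 and XBP1 against HSPA5, coloured by class, with the cell of highest HSPA5 circled. The ATF4 and DDIT3 panel has no common slope (0.50, 0.43 and -0.21 in epiblast-, hypoblast- and trophectoderm-like cells), while the XBP1 and HSPA5 panel rises in each class (0.38, 0.63 and 0.56).

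Depth and cell quality went with some of the stress genes. Over the trophectoderm-like cells, correlations with total reads lay between -0.11 and 0.22 and those with the mitochondrial share between -0.27 and 0.23. In epiblast-like cells PPP1R15A was at -0.47, ATF3 at -0.36 and ASNS at -0.31 with the mitochondrial share, and in hypoblast-like cells TRIB3 was at -0.60 and XBP1 at -0.47. The median mitochondrial share was 2.19%, 2.13% and 2.23% in epiblast-, hypoblast- and trophectoderm-like cells. Dissociation time differed between mural trophectoderm and inner cell masses, and its part and that of lineage cannot be told apart from these labels.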

How the data were processed

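Read counts per gene of 217 single cells, 1 condition and 1 sample, were used as the authors deposited them (raw counts, not normalized). Per the study's methods, reads were trimmed with FastP and counted with STAR on Ensembl chimpanzee genes. The submitters' processing notes list Trim Galore 0.6.6, STAR 2.7.7a and GRCh38 instead, while the identifiers are chimpanzee. Symbols came from a table covering 18783 of 33729 identifiers, and reads of identifiers with 1 symbol were summed. Reads shared with gene copies or overlapping genes were not resolved.

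Cells with under 4000 reads or 8000 detected genes were left out. This left 193 of 217 (111 of them trophectoderm-like), more than the study kept under the same stated limits. Scanpy 1.11.5 and leidenalg 0.10.2 clustered the cells (genes read in at least 20 cells, 50 components, 30 neighbours, resolution 1, seed 0), and marker lists named the clusters. All genes entered the clustering, so classes are not independent of the genes compared. CPM, computed here from summed reads, have exact Poisson and shares exact Clopper-Pearson 95% intervals. PCR copies are counted, so these cover counting error only. Doublets were not called.

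The 10 genes, the lists and the rules were chosen with earlier results of these data known. Named genes are the 10, the 2 genes of each of 13 lists with the largest fold between classes, the 5 nearest genes to ASNS, HSPA5 and ATF4, and markers. DDIT3 and XBP1 neighbours and other genes singled out were added afterwards. The folds and correlations were tested on simulated data. Alternatives covered cell filters, clustering, scaling, summary over cells, thinning and thresholds. Genome sequence was not used here.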

Additional observations from a re-analysis of the deposited data

Results flagged for a closer look

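The 24 cells left out for few reads or few detected genes carried 3 of the stress genes at more than 2-fold the highest level of any class of kept cells. DDIT3 was at 832 CPM summed over these cells against 144.49 CPM in epiblast-like cells, ATF3 at 98.7 CPM against 17.6 CPM in trophectoderm-like cells and SESN2 at 134.73 CPM against 47.994 CPM in hypoblast-like cells. HSPA5, CHAC1 and XBP1 were 1.19-fold, 1.12-fold and 1.06-fold above the highest class, while TRIB3 (2.60 against 13.2 CPM), ASNS (17.1 against 23.1 CPM), PPP1R15A (43.7 against 52.7 CPM) and ATF4 (388.97 against 389.06 CPM) were below it. The first 3 genes were marked because this signal lies in cells outside the comparisons. One cell, with 3863814 reads and 7524 detected genes, held 75.96%, 77.4% and 54.016% of these reads, with DDIT3 at 7166 CPM, ATF3 at 867 CPM and SESN2 at 825 CPM. Without it the left-out cells were at 219.39, 24.5 and 67.9 CPM. In the same cell ATF4 was at 1179 CPM and HSPA5 at 3509 CPM, while TRIB3 was at 10.6 CPM. The median left-out cell had DDIT3 at 51.5 CPM and ATF3 at 0. The median mitochondrial share was 16.3% in the left-out and 2.19% in the kept cells, while the cell with most of these reads was at 3.01%. The part of the mitochondrial share in these values was not tested.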

How the results depend on the processing

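No paired analysis was possible because all cells form 1 sample without replicate numbers, and for the same reason no replicate could be left out. Between epiblast-like and trophectoderm-like cells 1 gene (TRIB3) in place of 0 passed 2-fold with the highest cell of each gene and class left out, and 2 at 1.5-fold. Between hypoblast-like and trophectoderm-like cells 1 in place of 2 passed at 3-fold. Between epiblast-like and hypoblast-like cells 2 in place of 1 passed with the highest cells left out (DDIT3 beside ASNS), with the higher class at 1 CPM and with no filter on low values. Between late and early trophectoderm-like cells 3 in place of 0 passed with a minimum of 7000 genes, and 1 with 9000 genes, resolution 0.5, resolution 1.5, 15 neighbours or 1.5-fold. The share of cells with at least 3 of 5 targets, 64% in epiblast-like, 31.25% in hypoblast-like and 67.6% in trophectoderm-like cells, was 92%, 56.25% and 84.7% at 5 CPM and 6%, 3.125% and 4.50% at 50 CPM. At least 2 of 5 were reached by 96%, 84.4% and 95.5%, and at least 4 by 16%, 9.375% and 40.5%. In the 90 other recomputed counts and shares the value stayed within 1.5 times or within its interval. An unchanged count can still hide an exchange of genes, as between hypoblast-like and trophectoderm-like cells on medians. There CHAC1 no longer counted, since its trophectoderm-like median of 2.12 CPM was below the 10 CPM needed. PPP1R15A passed 2-fold instead, in the other direction, higher in hypoblast-like cells (log2 difference 1.13). Clustering without the stress genes and all listed genes kept 100% of the cells in their class. Of 558 alternative folds of single genes, 299 stayed within counting error, and 0 of the folds past 2-fold as reported changed sign. Log2 folds under 2-fold as reported could pass it with the other sign: for CHAC1 on medians, 1.14 in place of -0.88 in epiblast-like against trophectoderm-like cells and -1.37 in place of 0.53 in late against early cells, and in the latter comparison at a minimum of 7000 genes, which also added cells, 1.62 in place of -0.02 for DDIT3 and 1.19 in place of -0.11 for ATF3. Of 64 alternative correlations, 57 stayed within 0.1. A depth of 1679888 reads or more per cell does not limit genes at 10 CPM, whereas CHAC1 in hypoblast-like cells rests on 339 reads in 8 cells.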

Other observations

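Genes of other stress responses were compared by the same rule. Of all features tested, 16.8% to 27.2% passed either way between pairs of classes, and 12.2% between late and early trophectoderm-like cells. Of 8 cytosolic heat shock genes, the small heat shock protein gene HSPB1 passed 2-fold in each comparison of the 3 classes, at 1002 CPM in the epiblast-like class, 475 CPM in the hypoblast-like class and 70.9 CPM in the trophectoderm-like class, and the co-chaperone gene DNAJB1 was at 88.2, 74.6 and 51.7 CPM. Of 8 genes of the mitochondrial stress response, 0 passed in any comparison, with the protease genes OMA1 at 10.8 to 19.9 CPM and LONP1 at 73.8 to 107.45 CPM.

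Of 6 immediate early genes tested between epiblast-like and trophectoderm-like cells, 4 were higher in epiblast-like cells and 1, MYC, was lower (26.984 against 96.6 CPM). Of all features tested there, 17.3% were higher in epiblast-like and 9.95% in trophectoderm-like cells. FOS was at 24.6 CPM in the epiblast-like class, 5.17 CPM in the hypoblast-like class and 8.10 CPM in the trophectoderm-like class. Of 9 p53 targets, 3 were higher and 1 lower in epiblast-like than in trophectoderm-like cells, beside the same shares of all features. GADD45B was at 18.4, 6.69 and 8.18 CPM, and the cell cycle inhibitor gene CDKN1A at 11.3, 27.1 and 21.6 CPM. SESN2, itself a p53 target, was at 46.4, 47.994 and 45.1 CPM beside them.

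GDF15, a secreted stress cytokine of the ATF4 and CHOP axis, was highest in hypoblast-like cells, where 4 genes of its list were more than 2-fold lower than in trophectoderm-like cells. It was at 68.2 CPM in the epiblast-like class, 197.05 CPM in the hypoblast-like class and 127.36 CPM in the trophectoderm-like class. VLDLR, of the same list, had the same order at 7.10 CPM or less. Both were chosen after their values were seen.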
